A study of Mus musculus with 19 samples.

Results

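The neuregulins and ErbB receptors are a family of 8 genes, made up of the ligand genes Nrg1, Nrg2, Nrg3 and Nrg4 and the receptor genes Egfr, Erbb2, Erbb3 and Erbb4. Probe sets that carry the symbol of 1 member alone were found for 5 of the 8 (Nrg1, Nrg4, Egfr, Erbb2 and Erbb3), out of 15781 genes with a probe set of their own. Nrg2, Nrg3 and Erbb4 were not analysed here. The family was chosen with the difference of Nrg1 between Dnmt3a-/- and wild-type granulocyte-monocyte progenitors known, so the values of that contrast are given as a description and without a test. The same holds for the other comparisons in which Nrg1 is measured on arrays of that contrast.

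RNA was measured on exon arrays, on which a gene is read by several short probe sets, in myeloid progenitors sorted from mouse bone marrow. The wild-type and Dnmt3a-/- mice were on the C57Bl/6J background, and gave arrays of common myeloid progenitors (CMP; 3 wild-type and 3 Dnmt3a-/-) and of granulocyte-monocyte progenitors (GMP; 4 wild-type and 3 Dnmt3a-/-). Another 2 arrays hold PR+/- GMP and 4 hold GMP that are both PR+/- and Dnmt3a-/-, for which the labels give no strain. PR is read as PML-RARA, the fusion gene of acute promyelocytic leukaemia, from the title of the series. Dnmt3a encodes an enzyme that adds new methyl groups to DNA. The labels give no age, no promoter that drives the fusion and no time of deletion, and they leave unsaid whether each array of a group stands for an animal of its own. The p-values therefore measure only the spread between these samples.

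Neuregulins are growth factors with an EGF-like domain, made as membrane-bound precursors that are cut by proteases of the ADAM and BACE families. Nrg1 and Nrg2 bind the receptors Erbb3 and Erbb4, while Nrg3 and Nrg4 bind Erbb4. Erbb2 binds no ligand of its own and acts as the partner of the other receptors, Erbb3 has little kinase activity of its own, and Egfr answers to other ligands of the EGF family. Receptor pairs signal through the RAS-MAPK and the PI3K-AKT pathways. The family is best known from nerve, heart and epithelium, where NRG1 guides Schwann cells and heart muscle.

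The start region of Nrg4 is shown because Nrg4 stood higher in GMP without Dnmt3a than in any other group, and Dnmt3a acts on C bases followed by G. The region holds 250 bases before and 50 after the annotated start, on the minus strand at chr9:55283576-55283875, taken from RefSeq with build GRCm38.p6. Capitals mark each CG, the same letters on both strands.
Nrg4: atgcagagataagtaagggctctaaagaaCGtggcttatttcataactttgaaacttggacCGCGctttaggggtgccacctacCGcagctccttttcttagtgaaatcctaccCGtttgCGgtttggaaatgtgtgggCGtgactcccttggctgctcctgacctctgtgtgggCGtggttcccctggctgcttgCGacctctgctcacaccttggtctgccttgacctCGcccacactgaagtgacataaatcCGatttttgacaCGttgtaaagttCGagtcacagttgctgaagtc
It holds 13 CG and 51% of its bases are C or G. Of 32851 start regions of this length, 37.9% hold at least as many CG, and the median region holds 7. The corresponding regions held 15 CG for Egfr and 21 for Erbb2. No methylation was measured on these arrays, so the letters describe the region and nothing beyond it.

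The labels were checked first. Dnmt3a had a log2 level between 7.07 and 7.65 on the arrays with the gene and between 5.82 and 6.49 on those labelled Dnmt3a-/-. Kit and Cd34, which mark these progenitors, were high in all 6 groups (group means of at least 9.0 and 9.58). Fcgr3, which is higher in GMP than in CMP by the usual sort, had group means of at most 7.10 in CMP and at least 9.16 in GMP. Ly6a, the stem cell antigen Sca-1 that the usual sort excludes, lay between 3.57 and 4.25. Il7r, from the same list of sort genes, had group means of 5.88 and 5.89 in CMP and of 3.99 to 5.15 in GMP. The mean of 3 measured granule genes of GMP lay between 10.19 and 11.44 in PR+/- Dnmt3a-/- GMP. In the other GMP groups it lay between 11.83 and 12.27, and in CMP between 10.05 and 11.68. A list of 8 measured genes that respond to handling and stress stood high on wild-type CMP replicate 1 (mean 8.85), wild-type GMP replicates 1 and 2 (7.96 and 7.78) and PR+/- Dnmt3a-/- GMP replicates 1 and 2 (8.91 and 8.79), against 5.92 to 7.54 on the other arrays. Y-linked RNA was low on 9 of 19 arrays: the 6 of Dnmt3a-/- without PR+/-, 1 array each of both wild-type cell types, and 1 of PR+/- Dnmt3a-/- GMP. The title numbers of the wild-type arrays (21986 to 22012) lie apart from those of the Dnmt3a-/- arrays (22298 to 22303), so anything that went with these numbers cannot be told apart from the genotype.

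Nrg1, the ligand of Erbb3 and Erbb4, was highest in wild-type GMP and lower in each group that lacked Dnmt3a or carried PR+/-. Its log2 level, the mean over 17 probe sets, was 7.33, 6.73, 7.39 and 7.60 on the wild-type GMP arrays. On the Dnmt3a-/- GMP arrays it was 4.88, 5.22 and 5.38. Every wild-type GMP array stood above every other array of the series. The group means were 7.26 ± 0.37 (SD, n = 4) and 5.16 ± 0.26 (n = 3), a log2 difference of -2.10 ± 0.22 (SE), or 4.30-fold lower without Dnmt3a. This is the contrast the family was chosen on. Over all genes, limma at an adjusted p below 0.05 called 1.33% of genes in it, and 8.73% of genes were lower on every Dnmt3a-/- array than on any wild-type array. Whether fewer cells held the RNA or each cell held less cannot be told apart in such bulk samples.

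**Figure D1:**
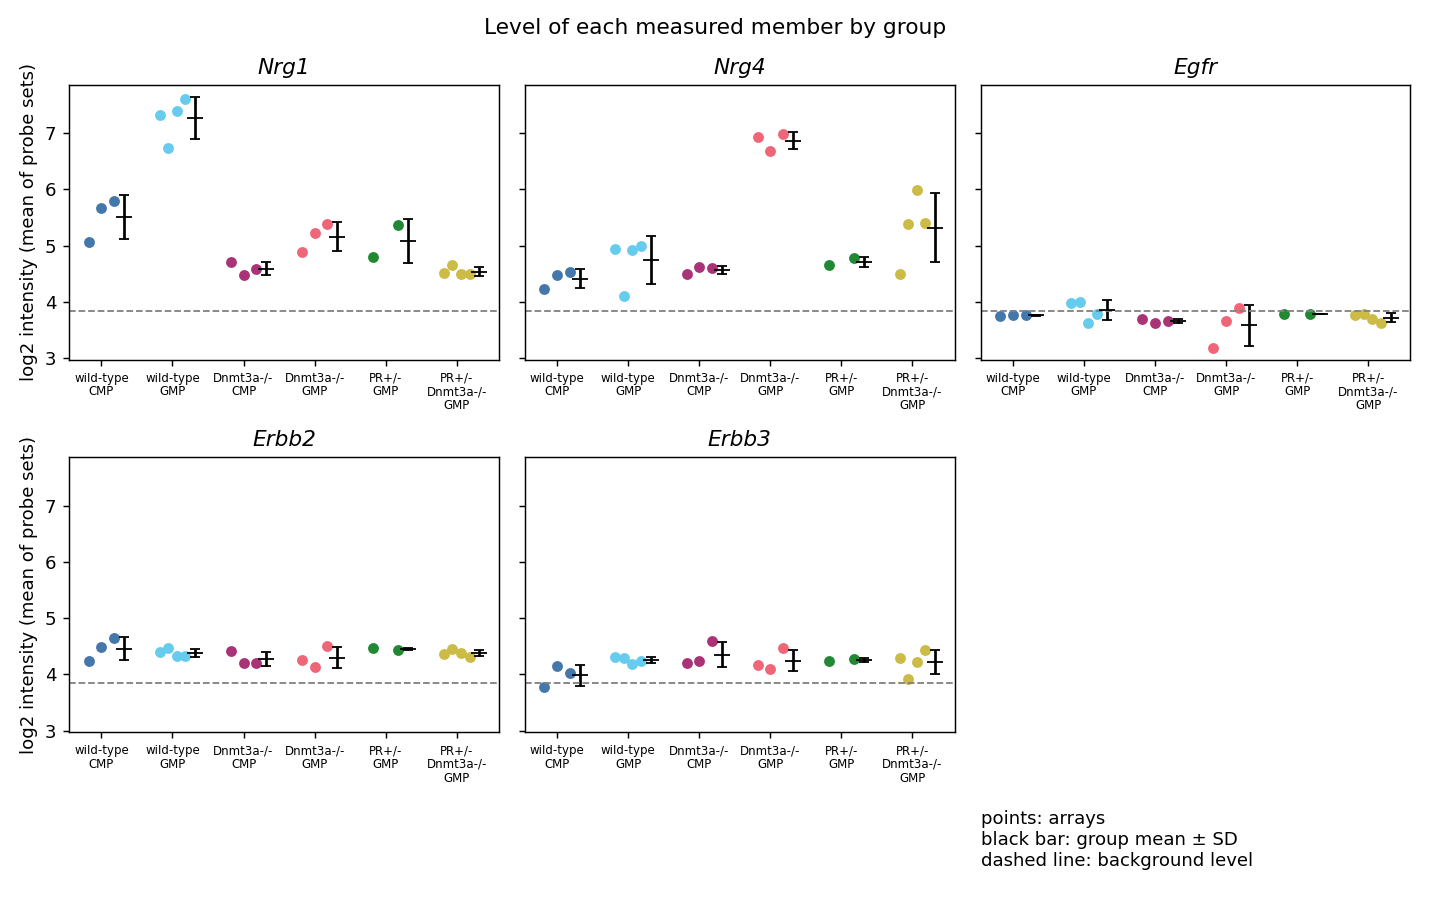
Log2 level of each measured member (vertical axis, mean over its probe sets) on each array (points) of the 6 groups, with the group mean ± SD in black and the background level of 3.84 as a dashed line. Nrg1 is highest on the 4 wild-type GMP arrays (6.73 to 7.60) and Nrg4 on the 3 Dnmt3a-/- GMP arrays (6.69 to 6.98), while Egfr, Erbb2 and Erbb3 stay between 3.19 and 4.64.

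In CMP the level of Nrg1 was 5.07, 5.67 and 5.79 in wild type and 4.71, 4.48 and 4.58 without Dnmt3a. The genotypes did not overlap, with Dnmt3a-/- lower, as in 13% of all genes in this comparison. The difference of -0.92 ± 0.23 (SE, 3 against 3 arrays; 1.89-fold lower) did not pass the threshold in limma (adjusted p = 0.0821), where 1.28% of genes did. The difference rests in part on probe sets whose means in Dnmt3a-/- CMP were below background. Without wild-type CMP replicate 1, the array with the highest handling genes of that group, it was -1.14 and passed (adjusted p = 0.0362). That array also stood apart in the mean of 2 B cell genes (7.59, against 4.53 and 4.20 on the other wild-type CMP arrays), whose part in the result was not tested. Without any other 1 of the 6 arrays the difference lay between -0.98 and -0.78 and did not pass (adjusted p between 0.169 and 0.261).

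The fusion background gave a second view of Dnmt3a loss on other arrays. Nrg1 was 4.80 and 5.36 in PR+/- GMP, and 4.52, 4.65, 4.49 and 4.49 in PR+/- Dnmt3a-/- GMP. All 4 arrays without Dnmt3a were lower, as 12.3% of all genes were. The difference was -0.54 ± 0.19 (SE), and limma did not call it (adjusted p = 0.62; unadjusted p = 0.023). It was -0.83 without PR+/- replicate 1 and -0.26 without PR+/- replicate 2, so its size rests on these 2 arrays. It also rests in large part on probe sets 4394148 (-3.65) and 4833055 (-3.13), whose means without Dnmt3a were below background. The median difference over the 17 probe sets was -0.34. No gene of 15781 passed in this comparison of 6 arrays (0% called), while 1256 had an unadjusted p below 0.05, and with all 19 arrays in 1 fit 21 genes passed.

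Within wild type, Nrg1 was higher in GMP than in CMP by 1.75 ± 0.22 (SE; 3.37-fold), and the arrays did not overlap, as 7.2% of all genes were higher on every GMP array. Within Dnmt3a-/- the difference between the same cell types was 0.57 ± 0.23, again without overlap, as in 17.3% of genes. Over its 17 probe sets the median of this difference was 0.19, with 12 higher in GMP and 5 lower. The 4 that were higher by more than 1 had means below background in Dnmt3a-/- CMP (1.72 to 3.72), so the size of their differences was not measured. PR+/- GMP stood below wild-type GMP by a log2 difference of -2.18 ± 0.23 (4.53-fold lower) and without overlap, as 12.3% of genes did. PR+/- Dnmt3a-/- GMP differed from Dnmt3a-/- GMP by -0.62 ± 0.21. These values use arrays of the contrast that chose Nrg1 and are given without a test. The comparison of PR+/- with wild-type GMP shares its wild-type arrays with that contrast. PR+/- arrays also carry another style of label than wild-type and Dnmt3a-/- arrays, so PR+/- and anything else that went with the label style cannot be told apart. The Dnmt3a-/- difference in GMP minus that in CMP was -1.19 ± 0.32, and that in PR+/- GMP minus that in wild-type GMP was 1.56 ± 0.31.

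From high to low, the group means of Nrg1 were 7.26 in wild-type GMP, 5.51 ± 0.38 (SD, n = 3) in wild-type CMP, 5.16 in Dnmt3a-/- GMP, 5.08 ± 0.40 (n = 2) in PR+/- GMP, 4.59 ± 0.11 (n = 3) in Dnmt3a-/- CMP and 4.54 ± 0.07 (n = 4) in PR+/- Dnmt3a-/- GMP. Neighbours in this order overlapped on single arrays except wild-type GMP with wild-type CMP, and PR+/- GMP with Dnmt3a-/- CMP. All 19 arrays were above 3.84, the median level of 20 measured genes restricted to other tissues, which serves as the background level. The range of Nrg1 over the arrays was 3.11, larger than in 97.2% of genes.

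The probe sets of Nrg1 did not all behave alike. Over all arrays 16 of 17 had a mean above the background level. Between Dnmt3a-/- and wild-type GMP all 17 had a lower mean without Dnmt3a, 13 by more than 1 on the log2 scale, with a median of -2.24 and a range from -3.67 to -0.13. For 14 of the 17 no Dnmt3a-/- array reached a wild-type one. The largest difference was in probe set 4833055, with a mean of 7.46 in wild-type GMP and of 3.79, just below background, in Dnmt3a-/- GMP. The smallest was in probe set 5037592, the 1 below background, with means of 2.69 and 2.55. Probe set 5178124 was well above background in both (6.27 and 6.00) and differed by only -0.26. Because probe sets of 1 gene share their RNA, they are not replicates of a condition.

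In the other comparisons some probe sets had a difference of the opposite sign. In CMP 14 of 17 had a lower mean without Dnmt3a, 6 of them without overlap, and 3 were higher. Probe sets 4394148, 4833055, 4862081 and 5411882 read 4.66, 4.73, 5.34 and 3.57 in wild type. In Dnmt3a-/- they read 1.72, 2.23, 3.72 and 2.29, means below background. The size of their differences (-2.94, -2.50, -1.62 and -1.27) was therefore not measured, and the 1.89-fold difference in CMP rests in part on them. In PR+/- GMP 12 of 17 were lower without Dnmt3a, 4 without overlap, and 5 were higher. The median difference was -0.34. Probe sets 4394148 and 4833055 had means of 5.97 and 5.62 in PR+/- GMP and of 2.32 and 2.49, below background, without Dnmt3a, so that the size of these differences was not measured either. Between PR+/- and wild-type GMP 15 of 17 were lower, 14 by more than 1. Among these, probe sets 4955816 and 5091872 had means below background in PR+/- GMP (3.31 and 3.52). The size of their differences (-2.92 and -3.23) was not measured, and the 4.53-fold difference rests in part on them. The exon that each probe set reads was not given in the sources used here.

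**Figure D2:**
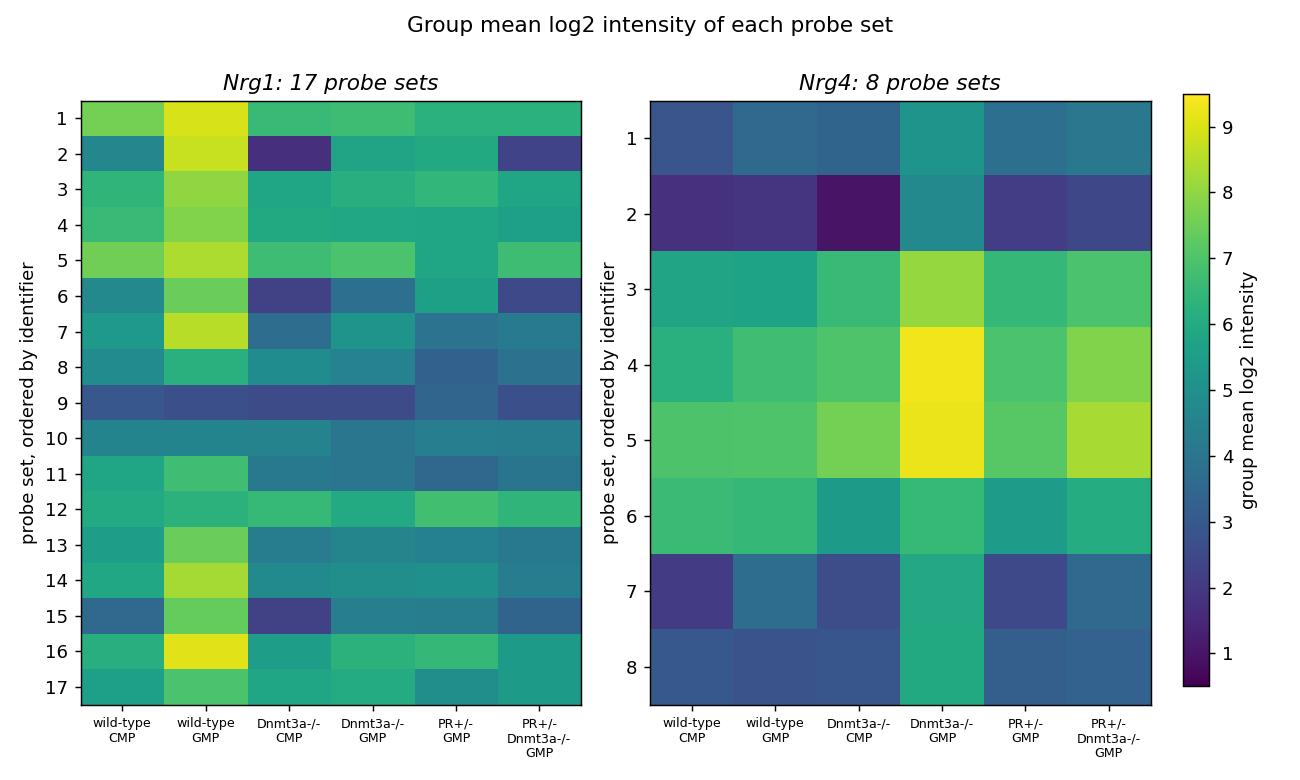
Group mean log2 intensity (colour) of each of the 17 Nrg1 and 8 Nrg4 probe sets (rows, ordered by identifier) in the 6 groups (columns). The wild-type GMP column is the brightest for most Nrg1 rows and the Dnmt3a-/- GMP column for most Nrg4 rows, while Nrg1 row 12 (6.27 and 6.00 in these groups) changes little.

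Nrg1 and monocyte genes stood high on the same arrays. The mean of 5 monocyte and macrophage genes (Csf1r, Adgre1, C1qa, Ly86 and F13a1) lay between 7.61 and 7.82 in wild-type GMP and between 6.92 and 7.13 in Dnmt3a-/- GMP. In CMP it lay between 6.99 and 7.09 in wild type and between 5.91 and 6.40 without Dnmt3a. In PR+/- GMP it lay between 7.0 and 7.18, and in PR+/- Dnmt3a-/- GMP between 6.26 and 6.64. Of the 5 genes C1qa was below background in wild-type CMP and Adgre1 in Dnmt3a-/- CMP. The group means of Nrg1 were 7.26 in wild-type GMP, 5.51 in wild-type CMP, 5.16 in Dnmt3a-/- GMP and 5.08 in PR+/- GMP. They were 4.59 in Dnmt3a-/- CMP and 4.54 in PR+/- Dnmt3a-/- GMP. The part of monocytic cells in the level of Nrg1 was not tested. Lists of Schwann and glial genes and of stromal genes read low on all arrays, and the part of such cells in the level of Nrg1 was not tested. The list means of 3 Schwann and glial genes lay between 4.17 and 4.81, and those of 5 stromal genes between 3.79 and 4.28, with Lepr and Kitl below background in each group.

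**Figure D3:**
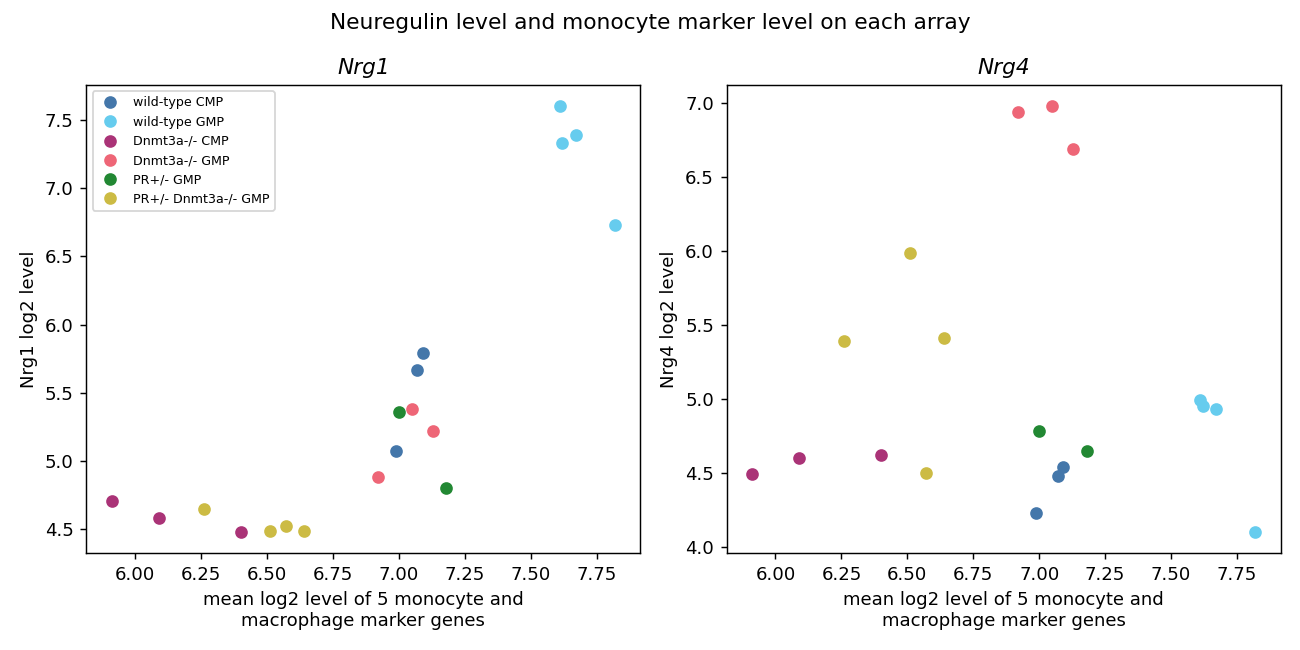
Log2 level of Nrg1 (left) and Nrg4 (right) on each array (points, coloured by group) against the mean log2 level of 5 monocyte and macrophage genes. The 4 wild-type GMP arrays lie highest on both axes for Nrg1, and the 3 Dnmt3a-/- GMP arrays (6.69 to 6.98) lie above all others for Nrg4 at a monocyte mean of 6.92 to 7.13.

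Low Y-linked RNA went with the Dnmt3a-/- label, since all 6 Dnmt3a-/- arrays without PR+/- were low in it. The wild-type arrays of low Y-linked RNA, CMP replicate 3 and GMP replicate 4, had Nrg1 levels of 5.79 and 7.60, the highest of their groups. The corresponding levels of Nrg4 were 4.54 and 4.99. With 1 such array in each wild-type group, the part of Y-linked RNA in the difference was not tested beyond a covariate. With that covariate the difference of Nrg1 between Dnmt3a-/- and wild type was -2.47 in GMP and -1.25 in CMP, the latter with an adjusted p of 0.0745 in limma. The 3 wild-type arrays of high handling genes are those of title numbers 21986 to 21988. Without them the Nrg1 differences were -2.34 in GMP and -1.14 in CMP, and the CMP difference then passed (limma adjusted p = 0.00849).

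Nrg4, the ligand of Erbb4, was highest in GMP without Dnmt3a. Its log2 level, over 8 probe sets, was 6.94, 6.69 and 6.98 on the Dnmt3a-/- GMP arrays. In wild-type GMP it was 4.95, 4.10, 4.93 and 4.99. The 3 Dnmt3a-/- GMP arrays stood above all 16 others. The difference of 2.13 ± 0.20 (SE; 4.36-fold higher without Dnmt3a) belongs to the contrast that the family was chosen on, so it is described and not tested. In this contrast 7.88% of all genes were higher on every Dnmt3a-/- array.

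In CMP the level of Nrg4 was 4.23, 4.48 and 4.54 in wild type and 4.49, 4.62 and 4.60 without Dnmt3a, so the genotypes overlapped. The difference was 0.15 ± 0.21 (SE; limma adjusted p = 0.821). The Dnmt3a-/- difference in GMP minus that in CMP was 1.97 ± 0.29, given without a test.

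Within Dnmt3a-/-, Nrg4 was higher in GMP than in CMP by 2.30 ± 0.21 (SE, 3 against 3 arrays; 4.92-fold). It passed in limma (adjusted p = 3.82e-05), where 10.1% of all genes did, and it kept its call without any 1 of the 6 arrays (adjusted p at most 0.000405). Its GMP arrays are also those of the contrast that the family was chosen on, so this p is no independent support. In wild type the corresponding difference was 0.33 ± 0.20 (adjusted p = 0.459, 4.3% of genes called). Without wild-type GMP replicate 2, which read 4.10, it was 0.54 and passed (adjusted p = 0.0333). In Dnmt3a-/- CMP, 4 of the 8 probe sets of Nrg4 had means below background (0.96 to 3.41). The 4.92-fold difference thus rests in part on differences of no measured size. The other 4 probe sets were higher in Dnmt3a-/- GMP than in Dnmt3a-/- CMP by 1.13 to 2.28.

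In the fusion background Nrg4 was 4.65 and 4.78 in PR+/- GMP. In PR+/- Dnmt3a-/- GMP it was 4.50, 5.39, 5.99 and 5.41. Of these 4 arrays 3 stood above both PR+/- arrays and 1, replicate 1, stood below them. The difference of 0.61 ± 0.37 (SE) was not called (limma adjusted p = 0.666). Replicates 1 and 2 are the PR+/- Dnmt3a-/- arrays of high handling genes, and without both the difference was 0.99 ± 0.23 (adjusted p = 0.53).

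PR+/- Dnmt3a-/- GMP had less Nrg4 than Dnmt3a-/- GMP, without overlap, as 6.69% of all genes did. The difference was -1.54 ± 0.30 (SE, 4 against 3 arrays; 2.92-fold lower) and passed in limma (adjusted p = 0.0236, 1.24% of genes called). Its Dnmt3a-/- GMP arrays are those of the contrast that the family was chosen on, so this p is no independent support. In fits that left out 1 array at a time the call was lost 5 of 7 times (adjusted p between 0.0509 and 0.109), and it held without PR+/- Dnmt3a-/- replicate 1 or 3. It was also lost without both arrays of high handling genes (-1.16; adjusted p = 0.128), with the Y-linked level as a covariate (-1.33; adjusted p = 0.189), with the median of the probe sets (-0.88; adjusted p = 0.276) or with the brighter probe sets alone (-1.0; adjusted p = 0.235). PR+/- and wild-type GMP had means of 4.71 ± 0.10 (SD, n = 2) and 4.74 ± 0.43 (n = 4), a difference of -0.03 ± 0.34 (SE; adjusted p = 0.979, 3.07% of genes called). As for Nrg1, anything else that went with the label style cannot be told apart from PR+/- in both comparisons.

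From high to low, the group means of Nrg4 were 6.87 ± 0.16 (SD, n = 3) in Dnmt3a-/- GMP, 5.32 ± 0.62 (n = 4) in PR+/- Dnmt3a-/- GMP, 4.74 in wild-type GMP, 4.71 in PR+/- GMP, 4.57 ± 0.07 (n = 3) in Dnmt3a-/- CMP and 4.41 ± 0.17 (n = 3) in wild-type CMP. Neighbours overlapped except Dnmt3a-/- GMP with PR+/- Dnmt3a-/- GMP, and PR+/- GMP with Dnmt3a-/- CMP, where the nearest arrays read 4.65 and 4.62. The range of Nrg4 over the arrays was 2.87, larger than in 96.1% of genes.

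Of the 8 probe sets of Nrg4, 4 had a mean above the background level. Between Dnmt3a-/- and wild-type GMP all 8 had a higher mean without Dnmt3a, 7 by more than 1, and 6 did not overlap. The brightest, probe set 5033353, had means of 7.01 in wild-type GMP and 9.24 in Dnmt3a-/- GMP. Probe set 5445642 stood apart among the bright ones with 6.49 and 6.54. The 4 probe sets below the background level had wild-type GMP means of 1.89 to 3.71. The size of their differences was therefore not measured, and the 4.36-fold difference of Nrg4 rests in part on them. In PR+/- GMP all 8 had a higher mean without Dnmt3a, by 0.11 to 1.18, and in none of them were the groups without overlap.

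Neutrophil genes were higher without Dnmt3a in both cell types, and lower without it in the fusion background. The mean of 4 neutrophil genes (Ltf, Camp, Ngp and Mmp8) lay between 9.04 and 10.71 in Dnmt3a-/- GMP and between 7.86 and 8.74 in wild-type GMP. In Dnmt3a-/- CMP it lay between 9.30 and 11.18, and in wild-type CMP between 8.33 and 8.39, where Nrg4 read 4.49 to 4.62 and 4.23 to 4.54. In PR+/- GMP it lay between 9.49 and 9.54, and in PR+/- Dnmt3a-/- GMP between 8.40 and 9.20. The part of neutrophil cells in the level of Nrg4 in GMP was not tested. Megakaryocyte genes had means of 6.37 to 7.04 in GMP and of 8.18 to 8.62 in CMP without Dnmt3a. In wild type these means were 5.33 to 6.38 in GMP and 6.67 to 7.19 in CMP. They were 5.61 to 5.80 in PR+/- GMP and 5.36 to 5.99 in PR+/- Dnmt3a-/- GMP. The part of megakaryocytic cells in the levels of Nrg1 and Nrg4 was not tested.

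Averaged over their probe sets, the receptors read close to the background level in all groups, although single probe sets read well above it (up to a mean of 6.85 for Egfr, 7.69 for Erbb2 and 7.44 for Erbb3). Egfr, the receptor of EGF itself, had group means between 3.59 ± 0.36 (SD, n = 3, Dnmt3a-/- GMP) and 3.85 ± 0.18 (n = 4, wild-type GMP), and 16 of 19 arrays lay below the background level. Of its 31 probe sets 13 had a mean above background. Because its gene means lie at or below background, no fold change is given for Egfr, and its log2 differences are those of levels near background.

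Erbb2, the partner receptor without a ligand, had group means between 4.28 ± 0.13 (n = 3, Dnmt3a-/- CMP) and 4.46 ± 0.20 (n = 3, wild-type CMP). All 19 arrays lay above background, as did 19 of its 33 probe sets. Its range over the arrays was 0.51, and 2.31% of genes had a smaller one. By this measure Erbb2 was among the genes that varied least over these arrays. Its level is a mean over 33 probe sets, 14 of them below background, while the median gene has 9 probe sets. The part of this in the small range was not tested.

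Erbb3, the receptor of Nrg1 with little kinase activity, had group means between 3.98 and 4.35, and 15 of its 29 probe sets were above background. In CMP it was 3.77, 4.15 and 4.02 in wild type and 4.21, 4.24 and 4.60 without Dnmt3a. The genotypes did not overlap, with Dnmt3a-/- higher, as in 10.1% of all genes. The difference was 0.37 ± 0.15 (SE), and limma did not call it (adjusted p = 0.31; unadjusted p = 0.0328). In wild type GMP read higher than CMP by 0.27 ± 0.14 (adjusted p = 0.382). None of the 3 receptors passed in any of the 6 comparisons in which they were tested by limma. The share of all genes that passed was also small in these comparisons, from 0% to 10.1%. Over these and the contrast described without a test, their differences lay between -0.26 and 0.37. A p that misses the threshold does not show that the levels were equal.

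**Figure D4:**
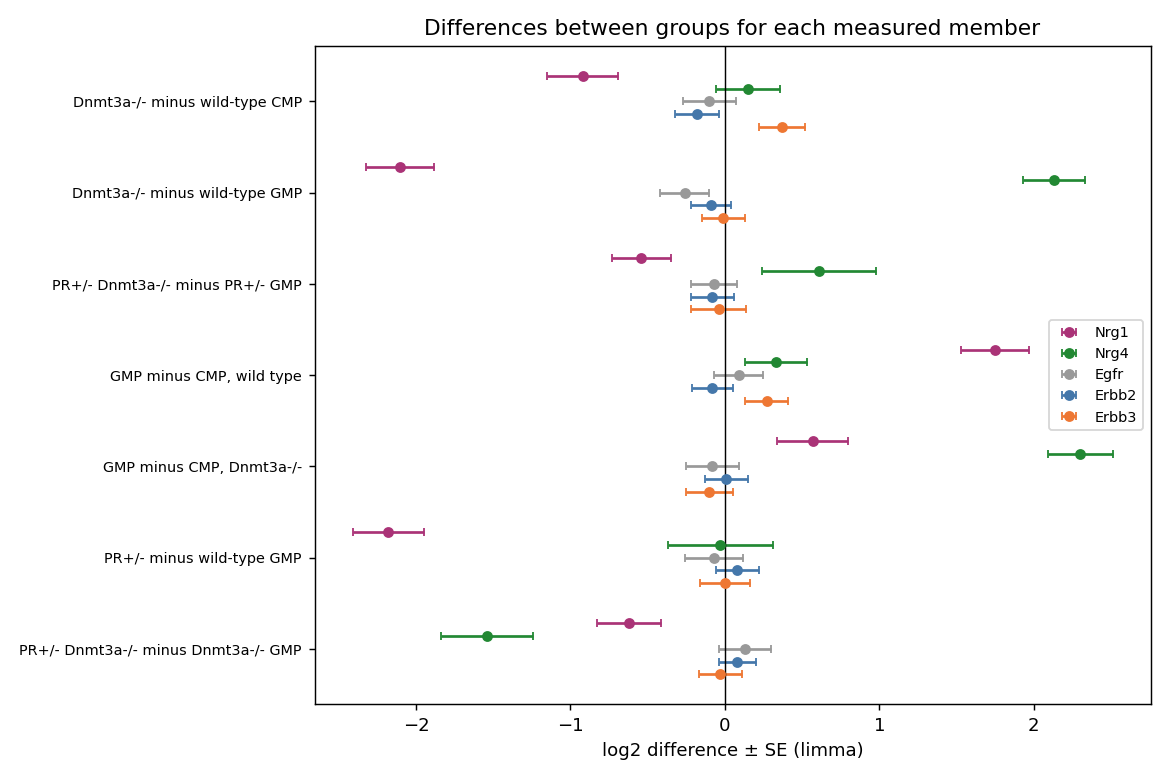
Log2 difference ± SE from limma (horizontal axis) of the 5 measured members in 7 comparisons (rows). Nrg1 lies below 0 in the rows of Dnmt3a loss (-0.92, -2.10 and -0.54), Nrg4 lies near 2 in the GMP of Dnmt3a-/- mice (2.13 and 2.30), and the receptors lie within -0.26 to 0.37.

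The genes that act before and after the receptors were read from a list of 65, of which 53 were measured. In CMP, 1 of the 53 fell without Dnmt3a, none rose and 52 did not pass, where 1.28% of all genes passed, with a median difference of 0.02 against -0.04 over all genes. The gene that fell was Bace1, a protease that cuts NRG1, with a level of 7.55 ± 0.37 (SD, n = 3) in wild type and 6.58 ± 0.18 (n = 3) without Dnmt3a (-0.96 ± 0.20 SE; limma adjusted p = 0.0336). Leaving out 1 array at a time ended the call in 5 of 6 fits (adjusted p between 0.0752 and 0.158), and it held without wild-type CMP replicate 1. It was also lost with the Y-linked level, which went with the Dnmt3a-/- label, as a covariate (adjusted p = 0.144) and with only the arrays of these groups (adjusted p = 0.101). The largest differences that did not pass were those of Etv5, a transcription factor induced by MAPK signalling (0.93 ± 0.31), Erbin, a scaffold that binds Erbb2 (0.74 ± 0.18), and the membrane protease Adam15 (-0.53 ± 0.15), with adjusted p of 0.186, 0.0741 and 0.123.

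In GMP, 1 of the 53 rose without Dnmt3a and none fell, where 1.33% of all genes passed, with a median of -0.07, the same as over all genes. It was Nedd4, a ubiquitin ligase that promotes receptor turnover, with 8.54 ± 0.13 (SD, n = 4) in wild type and 9.22 ± 0.13 (n = 3) without Dnmt3a (0.69 ± 0.13 SE; limma adjusted p = 0.0206). The call was lost without wild-type GMP replicate 4 or Dnmt3a-/- GMP replicate 1 or 2 (adjusted p between 0.0607 and 0.116). It was also lost with the Y-linked covariate (adjusted p = 0.0705) and with only the arrays of these groups (adjusted p = 0.0845). Etv5 (0.93 ± 0.29), the MAPK phosphatase Dusp6 (0.64 ± 0.29) and the kinase Mapk3 (0.64 ± 0.17) had the largest differences that did not pass (adjusted p = 0.128, adjusted p = 0.251 and adjusted p = 0.0763). All 6 measured ligands of the EGF family beside the neuregulins had differences below 0 (-0.63 to -0.04), and none passed. Of these Btc, Epgn and Ereg had means below background in Dnmt3a-/- GMP (3.28, 3.11 and 3.52), and the means of the background genes themselves lay between 3.58 and 3.88 there and between 3.84 and 3.98 in wild-type GMP.

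Between GMP and CMP of wild type, 3 of the 53 rose and 3 fell, where 4.3% of all genes passed, with a median of -0.02 against 0.04 over all genes. Higher in GMP were Bace1 (0.74 ± 0.18 SE; limma adjusted p = 0.0397), the kinase Map2k1 (0.74 ± 0.14; adjusted p = 0.00871) and Cbl, a ubiquitin ligase for the receptors (0.41 ± 0.11; adjusted p = 0.0499). Lower were the adaptor Gab1 (-0.90 ± 0.21; adjusted p = 0.0256), the phospholipase Plcg1 (-0.74 ± 0.18; adjusted p = 0.0395) and Nedd4 (-0.58 ± 0.13; adjusted p = 0.0203). With only the arrays of these groups all 6 lost their call (adjusted p between 0.0616 and 0.205). Bace1, Plcg1 and Cbl also lost it with the Y-linked covariate (adjusted p between 0.0503 and 0.0634), Bace1, Gab1 and Cbl with the median of the probe sets (adjusted p between 0.0685 and 0.109), and Cbl with adjacent title numbers of the Dnmt3a-/- arrays as a random block (adjusted p = 0.0506). Further losses were those of Bace1 with array weights (adjusted p = 0.102), of Plcg1 and Cbl with the brighter probe sets (adjusted p = 0.0582 and adjusted p = 0.0508), and of Cbl with quantile normalization (adjusted p = 0.0517) and with all 19 arrays in 1 fit (adjusted p = 0.0639). Map2k1 kept its call in all 7 fits without 1 array. Bace1 and Cbl lost theirs in 6 of 7, Plcg1 in 5 and Gab1 and Nedd4 in 3 (adjusted p up to 0.172). Bace1 kept its call without wild-type CMP replicate 3, Cbl without wild-type GMP replicate 2 and Plcg1 without wild-type GMP replicate 1 or 2. Gab1 lost its call without any 1 of the 3 CMP arrays, and Nedd4 without CMP replicate 1 or 2 or GMP replicate 4. Without the 3 arrays of high handling genes, Plcg1 alone passed (adjusted p = 0.0497). Etv5 (-0.94 ± 0.29), Mapk3 (0.56 ± 0.17) and the transcription factor Stat5b (-0.54 ± 0.17) had the largest differences that did not pass.

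Between PR+/- GMP with and without Dnmt3a none of the 53 passed, where 0% of all genes did. Of the 53, 1 had an unadjusted p below 0.05 in limma, against 1256 of all 15781 genes. The median of the 53 was 0.00 against -0.03 over all genes. The largest differences were those of Etv5 (0.74 ± 0.46 SE), Gab1 (0.74 ± 0.21) and Dusp6 (0.55 ± 0.26), with adjusted p of 0.67, 0.601 and 0.63. Etv5 had a value above 0 in each of the 3 comparisons of Dnmt3a loss, and it passed in none of them.

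**Figure D5:**
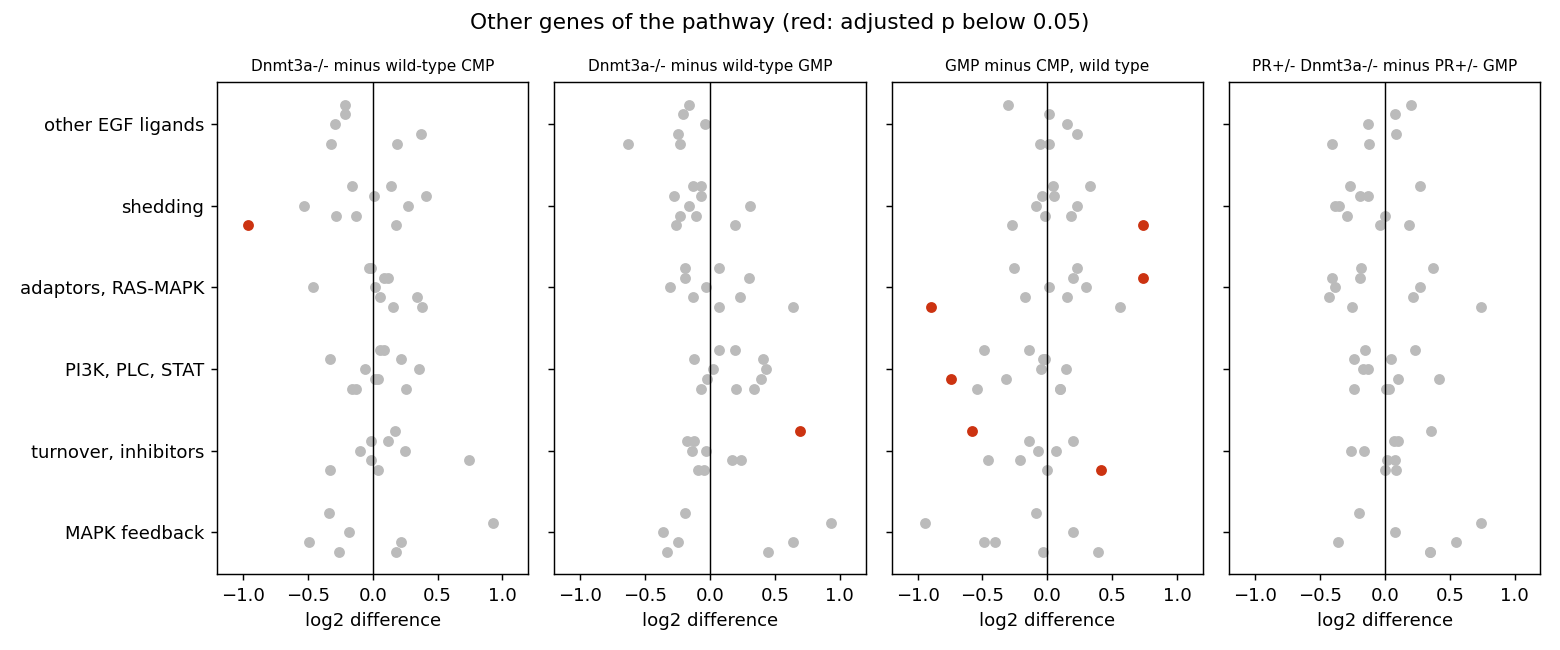
Log2 difference (horizontal axes) of each of the 53 other pathway genes, in rows by role, in 4 comparisons (panels), with genes past an adjusted p of 0.05 in red. Red points number 1, 1, 6 and 0 from left to right.

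The genes whose levels followed Nrg1 most closely over the 19 arrays were Pik3r6, a regulatory subunit of PI3K gamma (Pearson r = 0.93), Bbs7, a subunit of the cilium complex BBSome (0.91), Tns4, a tensin (0.91), Met, the receptor of hepatocyte growth factor (0.90), and Rassf4 (0.88). Met had a mean of 7.88 in wild-type GMP, 6.43 in wild-type CMP, 6.45 in Dnmt3a-/- GMP and 5.65 in Dnmt3a-/- CMP. Pik3r6 had means of 6.59, 5.73, 5.87 and 5.40 in the same groups. The lowest coefficients were those of the transcription factor Gata2 (-0.93), the monoamine transporter Slc18a2 (-0.92) and the kinase Cdk19 (-0.92). Gata2 had a mean of 7.28 in wild-type GMP and of 8.40 in Dnmt3a-/- GMP. These coefficients describe arrays that share their groups and carry no p. Of the other members, Egfr had a coefficient of 0.39 with Nrg1, Erbb2 0.19, Erbb3 -0.01 and Nrg4 -0.17.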

How the data were processed

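The authors deposited linear intensity values of 194293 probe sets on 19 arrays, ranging from 1.34 to 16208. The submitters' processing notes name RMA, Partek and mm9, and 20 ng of total RNA was amplified per sample, per the labels. The way the probe sets were chosen and normalised was not given in the sources used here. Array medians lay between 53.0 and 56.8, so no further scaling was applied. No count or detection call belongs to these values, and the number of arrays limits the precision.

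The log2 of each deposited intensity was averaged over the probe sets that carry a gene's symbol alone, in an annotation in which 179496 have 1 symbol, 1328 several and 13469 none. Symbols were updated through a RefSeq table of GRCm38.p6 (13727 as annotated, 2039 updated, 37 kept). Groups followed the labels, and replicates without a number were numbered in the order of their titles. Groups were compared with limma 3.58.1 in R 4.3.3 (lmFit and eBayes, two-sided, Benjamini-Hochberg over 15781 genes, threshold 0.05). Comparisons among wild type and Dnmt3a-/- used 13 arrays, those within PR+/- 6, and those across both backgrounds the 13 GMP arrays. The Dnmt3a-/- CMP and GMP arrays of adjacent title numbers deviated together across genes (r = 0.121, 0.139 and 0.171; other pairings -0.148 to 0.0305), though the labels do not say that the numbers mark shared animals. With these numbers as a random block (duplicateCorrelation) no member's call changed. The code was tested on simulated data.

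Members and lists were chosen with earlier results of these data known. All 8 members were to be named, with the 5 highest and 3 lowest coefficients with Nrg1. Of the pathway genes, those that passed under Dnmt3a loss or between wild-type GMP and CMP were to be named. At most 3 others per comparison were added by size. Pathway genes that passed in other comparisons are not listed. In limma they include Bace1 between GMP and CMP of Dnmt3a-/- (adjusted p = 0.000425, 10.1% of all genes called). Another is Nedd4 between PR+/- and wild-type GMP (adjusted p = 0.0136, 3.07% called). Tests of members on a difference of differences had been planned and were left out, since they use the contrast that chose the family. Of the 8 members, 5 had a start region in the RefSeq table. The Y-linked values of single arrays, and the probe sets and arrays singled out in the text, were chosen after the values were seen.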

Additional observations from a re-analysis of the deposited data

Results flagged for a closer look

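Of 34 groups of 4 arrays examined over 17 genes (the 5 members and the pathway genes named), 1 had an array far from the rest. Nrg4 read 4.10 in wild-type GMP replicate 2 and 4.93 to 4.99 in the other 3 wild-type GMP arrays, so that the gap to the nearest array made up 0.928 of the group's range. Chance marks about 1 group in 20 by this measure. That array is among the 5 of high handling genes.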

How the results depend on the processing

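The differences of Nrg1 kept their sign under all alternatives run, as did those of Nrg4 between Dnmt3a-/- and wild-type GMP (1.47 to 2.21) and between GMP and CMP of Dnmt3a-/- (1.46 to 2.39, passed in all 16). For Nrg1 between Dnmt3a-/- and wild-type CMP, array weights gave -1.05 (limma adjusted p = 0.0037). The fit without title numbers 21986 to 21988, the arrays of high handling genes given above, gave -1.14. The offset of 16 gave -0.55 (adjusted p = 0.151), the median of probe sets gave -0.72 (adjusted p = 0.468), and leaving out 1 array gave -1.14 to -0.78. Between PR+/- Dnmt3a-/- and PR+/- GMP it was -0.31 with the offset and -0.83 to -0.26 without 1 array. With that offset, added to the intensity, Nrg1 differed by -1.73 between Dnmt3a-/- and wild-type GMP, by 0.27 between GMP and CMP of Dnmt3a-/-, by -1.76 between PR+/- and wild-type GMP and by -0.34 between PR+/- Dnmt3a-/- and Dnmt3a-/- GMP. Nrg4 in Dnmt3a-/- minus wild-type GMP was 1.58 with the median of probe sets and 1.47 with the offset. In CMP it was -0.06 with the Y-linked covariate. In PR+/- minus wild-type GMP it was 0.02, 0.03 and 0.02 with the median, the brighter probe sets and that covariate, and -0.24 to 0.05 without 1 array. In GMP minus CMP of wild type it was 0.23 to 0.54 without 1 array. In PR+/- Dnmt3a-/- minus Dnmt3a-/- GMP it was -0.88, -1.0, -1.33 and -1.16 with the median, the brighter probe sets, the covariate and without both arrays of high handling genes, -1.54 with only these groups (adjusted p = 0.0766), and -1.77 to -1.27 without 1 array. Of 21 receptor differences, all within -0.26 to 0.37, 13 changed sign under at least 1 alternative. The causes were not tested.

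Counts over all genes moved more than those of the members. In CMP 202 genes passed, 61 without Dnmt3a-/- replicate 3 and 1064 with array weights. In GMP it was 210, 49 without Dnmt3a-/- replicate 1, 48 with the Y-linked covariate and 1733 with array weights. For PR+/- against wild-type GMP it was 484 and 43 without PR+/- replicate 1, and for PR+/- Dnmt3a-/- against Dnmt3a-/- GMP 195 and 11 with the covariate. For GMP against CMP it was 678 in wild type (258 with only these groups) and 1590 in Dnmt3a-/- (968 to 3853). Pathway genes called ranged from 0 to 5 in CMP, 0 to 4 in GMP and 0 to 7 between the wild-type cell types.

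Replicates 1 and 2 occur in both PR+/- groups, and the deviations of arrays of 1 number had r = 0.0774 and 0.0169 across genes. With 2 PR+/- GMP arrays the deviations mirror each other, so these values do not decide whether the numbers mark pairs. With a replicate block the difference was -0.50 for Nrg1 (limma adjusted p = 0.347) and 0.23 for Nrg4 (adjusted p = 0.707). The block changed no call of a member, in a comparison where 0 of 15781 genes passed in the main fit.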
